A study of Mus musculus with 6 samples.

Results

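The proteasome genes of mouse cortical cultures were taken as all protein-coding genes whose symbol runs from Psma to Psmg and ends in a number, a rule on names that used no measured value. The rule found 48 genes among the 43346 rows of the count table. They comprised 8 alpha and 7 constitutive beta subunits of the 20S core, 4 inducible or tissue-specific beta subunits, 6 base ATPases (Psmc) and 11 non-ATPase subunits (Psmd) of the 19S regulator, 3 chaperones of 19S base assembly, 4 activators, 1 inhibitor and 4 chaperones of 20S assembly. RNA-seq was performed on 6 libraries from primary cortical cultures. Their cells came from embryos of the Cyp19-EGFP strain at day 15.5 of gestation, were labelled SRY+ (male) in each library and were grown on coated coverslips. Both treatment groups were named as this strain, whose transgene is an artificial chromosome in which EGFP stands under the regulatory sequence of the aromatase gene. Another passage of the study's methods names C57BL/6 embryos for these cultures. Carriage of the transgene by the embryos was not checked here. The vehicle group received DMSO and the 10HDA group received 1 mM 10-hydroxy-2-decenoic acid (10HDA), a fatty acid of royal jelly, for a length of time that the sources used here do not give. Each of 3 separate cultures (1, 3 and 4) gave 1 vehicle and 1 10HDA library. The comparison asked which transcripts differ in level between cortical cells given 10HDA and cells given vehicle.

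The proteasome is the protease that breaks down most short-lived and misfolded proteins of the cell, usually after they have been tagged with ubiquitin. Its barrel-shaped 20S core is built of outer alpha rings, which gate the entrance, and inner beta rings, which hold the catalytic sites, and the 19S regulator binds, unfolds and threads substrates into the core. Subunits are made in matched amounts and joined with the help of dedicated chaperones, and in neurons the complex also takes part in remodelling synapses.

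Library totals ranged from 9144736 to 13367194 counts, and levels are in CPM, the counts of a gene scaled to the TMM-adjusted total of the genes tested, which held 97.6% to 98.0% of the counts of a library. On that scale 3 counts corresponded to between 0.221 and 0.336 CPM. The proteasome genes took between 0.288% and 0.350% of all counts in a library. Neuron markers marked the cultures as labelled, with 12 of 12 tested and a summed level between 8056 and 10134 CPM, whereas 10 microglia markers together reached between 0.885 and 1.46 CPM, with 1 of the 10 at 0 in every library. Both libraries of culture 1 stood apart in 4 Y-linked genes, with summed levels of 9.07 and 9.30 CPM against 97.8 to 136 CPM in the 4 other libraries, although all carry the label SRY+. Some results are therefore also given without culture 1. These are the medians of all tested proteasome genes, the core, the regulator and both sets of assembly chaperones. The calls of proteasome and related genes under the culture block are likewise given without it.

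As a group, proteasome transcripts differed little between 10HDA and vehicle. Of the 48 genes, 41 reached 10 CPM in at least 3 libraries and were tested by edgeR's quasi-likelihood test, and their log2 fold changes (10HDA against vehicle) had a median of 0.025, beside -0.0095 over all 10520 genes tested. The levels of all 48 genes summed to 3597, 3106 and 3125 CPM in the vehicle libraries of cultures 1, 3 and 4 and to 3361, 3314 and 3278 CPM in the 10HDA libraries of the same cultures. The vehicle libraries thus spanned the 10HDA libraries, and the means were 3276 ± 278 and 3318 ± 41.7 CPM (SD, n = 3 each). At a Benjamini-Hochberg adjusted p under 0.1, edgeR called 0 of the 41 genes in either direction, against 0.627% of all genes tested (0.2% higher and 0.428% lower). DESeq2 and limma-voom also called 0 of the 41 at the same threshold, against 170 and 66 of the 10520 genes tested. At an unadjusted edgeR p under 0.05, 3 of 41 genes (7.32%) passed, all higher with 10HDA, against 10.1% of all genes (4.4% higher and 5.67% lower). In bulk RNA a smaller number of cells of one type and less RNA in each such cell cannot be told apart.

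Most changes of the proteasome genes were also small. Their median absolute log2 fold change was 0.046, beside 0.12 for all genes tested, while the median standard error (SE) was similar at 0.12 and 0.13. For 32 of 41 proteasome genes (78.0%) the 95% interval of the log2 fold change lay within -0.5 to 0.5, a bound of 1.41-fold, against 72.5% of all genes. The remaining 9 genes, whose intervals reached beyond that bound, were Psma4, Psmb4, Psmb5, Psmb10, Psmd6, Psmd14, Psme3, Psmg1 and Psmg2. Between the 5th and 95th percentiles of all genes, at -0.32 and 0.31, lay 36 of 41 proteasome genes. That range holds 90% of all genes by definition. The 5 others, Psmb4, Psmb10, Psmd6, Psmg1 and Psmg2, lay above, where 5% of all genes lie, and 0 lay below. By this measure the proteasome genes were not narrower than all genes.

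**Figure D1:**
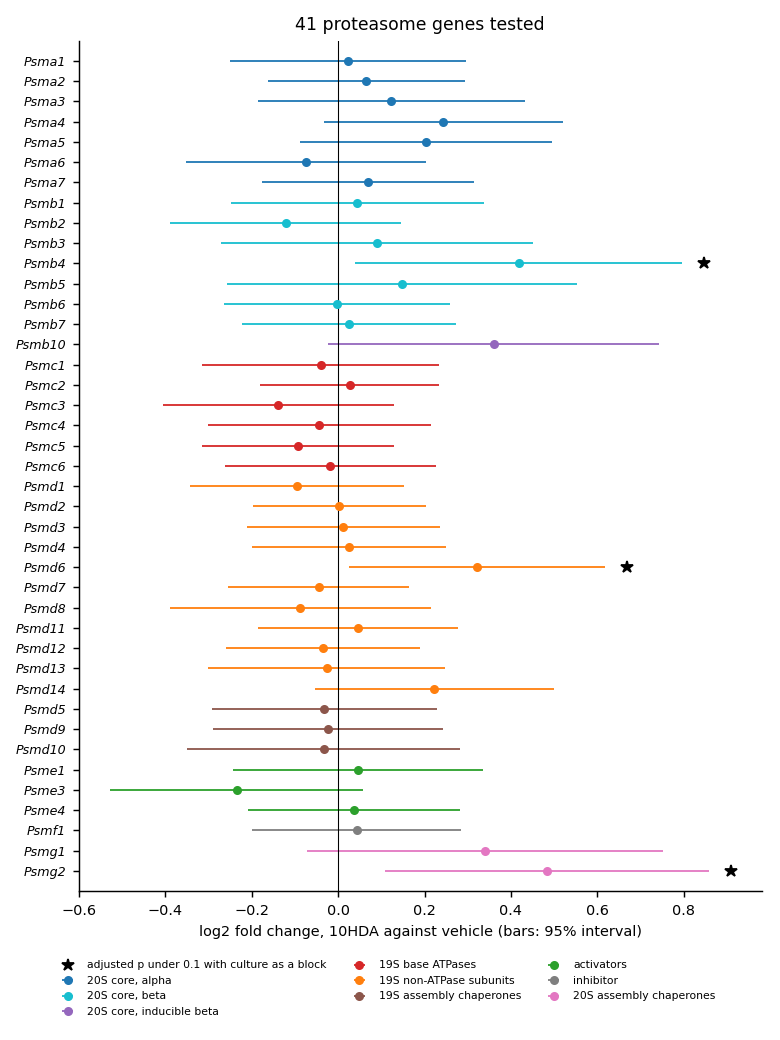
Log2 fold change (10HDA against vehicle, x axis) of each of the 41 proteasome genes tested, coloured by role, with bars for the 95% interval from edgeR without a culture term (n = 3 libraries per treatment). Most intervals cross 0, and stars mark Psmb4, Psmd6 and Psmg2, which passed an adjusted p of 0.1 with culture fitted as a block.

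The 3 genes with the smallest p among those higher with 10HDA were Psmg2, Psmb4 and Psmd6. With culture fitted as a block, which compares each 10HDA library with the vehicle library of its own culture, these 3 genes rose and 0 fell. The share of 3 in 41 (7.32%) stood against 8.98% of all genes tested called under the block, 3.91% higher and 5.08% lower. At an unadjusted p under 0.05 the block passed 8 of 41 (19.5%, against 20% of all genes), 7 of them higher (17.1%, against 8.99%) and 1 lower (2.44%, against 11%).

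Psmb4 encodes a beta subunit without a catalytic site that is among the last to join the core while it is being assembled (GRCm38 chromosome 3, 94884093 to 94886961, minus strand). Its level was 90.5, 90.6 and 67.3 CPM in the vehicle libraries of cultures 1, 3 and 4 and 118, 131 and 81.7 CPM in the 10HDA libraries. Each culture was higher with 10HDA, but the 10HDA library of culture 4 lay below the vehicle libraries of cultures 1 and 3, so the groups overlapped. The means were 82.8 ± 13.4 and 110 ± 25.6 CPM (SD, n = 3 each), with a log2 fold change of 0.42 (SE 0.172, 95% interval 0.04 to 0.80) and an edgeR adjusted p of 0.454. With the culture block the log2 fold change was 0.40 (SE 0.0962) and the adjusted p 0.0115. Psmb4 was also called without a block when the 10HDA library of culture 4 was left out (log2 fold change 0.59, edgeR adjusted p 0.0658).

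Psmd6 encodes a scaffold subunit of the lid, the part of the 19S regulator that holds the deubiquitinase (chromosome 14, 14112174 to 14120984, minus strand). Its level was 71.9, 70.2 and 56.0 CPM with vehicle and 83.0, 93.9 and 70.1 CPM with 10HDA in cultures 1, 3 and 4. It was higher with 10HDA in each culture, and the groups overlapped through the 10HDA library of culture 4. The log2 fold change was 0.32 (SE 0.135, edgeR adjusted p 0.458), and with the culture block it was 0.32 (SE 0.0999, adjusted p 0.0591).

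Psmg2 encodes a partner in the heterodimer that guides the assembly of the alpha ring (chromosome 18, 67641599 to 67654162, plus strand). Its level was 14.4, 13.5 and 10.3 CPM with vehicle and 17.3, 20.7 and 15 CPM with 10HDA. Its 3 10HDA libraries lay above its 3 vehicle libraries, the one case among the 41 proteasome genes tested (2.44%, against 5.96% of all genes tested). For 0 of the 41 did the 3 10HDA libraries lie below the 3 vehicle libraries (against 7.44% of all genes). The means were 12.7 ± 2.15 and 17.7 ± 2.87 CPM, with a log2 fold change of 0.48 (SE 0.171, edgeR adjusted p 0.383), and with the culture block the adjusted p was 0.0351.

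The block calls depended on which cultures entered. Without culture 1 the same 3 genes were called (edgeR adjusted p 0.0304 for Psmb4, 0.0558 for Psmd6 and 0.0349 for Psmg2). Without culture 3 the block called Psmb4, Psma4 and Psmd14 higher and Psme3 lower, and without culture 4 it called Psmb4 alone. Of all 10520 genes tested, the block called 711 without culture 1 (281 higher), 1150 without culture 3 (507 higher) and 277 without culture 4 (133 higher).

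To show the sequence upstream of the genes that the block called, the 120 bases before the RefSeq start (GRCm38.p6) are printed for Psmb4 (chr3:94886959-94887078, minus strand), Psmd6 (chr14:14120946-14121065, minus strand) and Psmg4 (chr13:34162844-34162963, plus strand), an assembly chaperone called at a lower filter. No stretch is shown for Psmg2. Beside them stand the catalytic subunits Psmb5 (chr14:54617996-54618115, minus strand) and Psmb6 (chr11:70525237-70525356, plus strand), 2 of the genes with a match to the core of the antioxidant response element, the site of the Nfe2l1 and Nfe2l2 factors. Each runs 5′ to 3′ on the gene's strand, and capitals mark a motif match, CCGGAAG in Psmd6 (first base at -45 from the start) and TGACNNNGC in Psmb5 (-47) and Psmb6 (-9). RefSeq starts differ from those of GENCODE, the source of the gene coordinates. The stretches of Psmb4, Psmd6 and Psmb5 reach into the GENCODE gene, which on the minus strand starts at 94886961, 14120984 and 54618022.
Psmb4: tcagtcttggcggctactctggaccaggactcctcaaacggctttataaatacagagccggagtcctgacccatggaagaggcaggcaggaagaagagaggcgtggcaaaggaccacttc
Psmd6: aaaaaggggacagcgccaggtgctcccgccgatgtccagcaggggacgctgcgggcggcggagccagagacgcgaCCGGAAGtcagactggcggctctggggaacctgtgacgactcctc
Psmg4: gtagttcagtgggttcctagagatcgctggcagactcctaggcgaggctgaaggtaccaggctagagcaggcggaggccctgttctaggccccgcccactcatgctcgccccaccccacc
Psmb5: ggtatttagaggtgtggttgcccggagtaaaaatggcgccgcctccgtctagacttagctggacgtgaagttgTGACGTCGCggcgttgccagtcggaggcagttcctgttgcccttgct
Psmb6: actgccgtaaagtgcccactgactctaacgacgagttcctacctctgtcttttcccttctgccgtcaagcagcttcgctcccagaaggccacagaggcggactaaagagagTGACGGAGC

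Over 40 of the 48 genes with a promoter window in RefSeq (250 bases before to 50 after the start, both strands), TGACNNNGC, the antioxidant response element core, was found in 6 genes (15%), Psmb5, Psmb6, Psmc6, Psmd9, Psmd12 and Psme4, against 17% of tested genes and 14% of all 27025 genes with a window. CCGGAAG, a site of ETS factors, was found in 14 of 40 (35.0%), against 21.4% of tested genes and 9.93% of all. CCAAT was found in 14 of 40 (35.0%), against 43.1% and 41.1%. TGATGNAAT, the amino acid response element, was found in 0 of 40, against 0.528% of tested genes and 1.08% of all. These letter matches describe the windows and show no binding. Of the 5 sequences shown, Psmb4 and Psmg4 had no match to the 4 motifs in the window and rose under the block, Psmg4 at the lower filter. Psmd6, with its match to CCGGAAG, also rose under the block. Psmb5 and Psmb6, with their matches to TGACNNNGC, were called in neither fit. A link between motif and change was not tested.

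Of the 9 roles, the chaperones of 20S assembly had the highest median log2 fold change, 0.41 over the 2 genes tested, Psmg1 and Psmg2, next to 0.36 for Psmb10, the 1 inducible beta subunit tested. Without culture 1 the order turned, with 0.50 and 0.53. Psmg1 and Psmg2 form the heterodimer that guides the alpha ring, and Psmg3 and Psmg4 form another that acts beside it. Their summed level was 44.7, 40.1 and 32.7 CPM with vehicle and 54.2, 61.3 and 41.6 CPM with 10HDA in cultures 1, 3 and 4, higher with 10HDA in each culture, although the 10HDA library of culture 4 lay below the vehicle library of culture 1. The mean sums were 39.2 ± 6.05 and 52.4 ± 9.97 CPM (SD, n = 3 each).

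Psmg4 (chromosome 13, 34162964 to 34178173, plus strand) was too low for the filter of 10 CPM and was tested at 1 CPM in at least 3 libraries. Its level was 9.16, 8.04 and 5.95 CPM with vehicle and 12.9, 12.8 and 9.42 CPM with 10HDA, and the groups did not overlap. At 1 CPM its log2 fold change was 0.62, with an edgeR adjusted p of 0.305 without a block and 0.0203 with the culture block (SE 0.152), a fit added after the data were seen. In that fit 4 of 44 proteasome genes (9.09%) rose, Psmb4, Psmd6, Psmg2 and Psmg4, against 3.92% of all genes, and 0 fell, against 3.58%. The call of Psmg4 held without culture 1 (edgeR adjusted p 0.0379) and without culture 3 (0.06) but not without culture 4 (0.144). Psmg1 was at 12.5, 11.4 and 10.9 CPM with vehicle and 15.4, 17.8 and 10.4 CPM with 10HDA. It was higher with 10HDA in cultures 1 and 3 and slightly lower in culture 4 (log2 fold change 0.34, edgeR adjusted p 0.551). Psmg3, at 7.14 ± 1.5 CPM with vehicle and 8.43 ± 1.62 CPM with 10HDA, had a log2 fold change of 0.27 at the filter of 1 CPM (edgeR adjusted p 0.668).

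**Figure D2:**
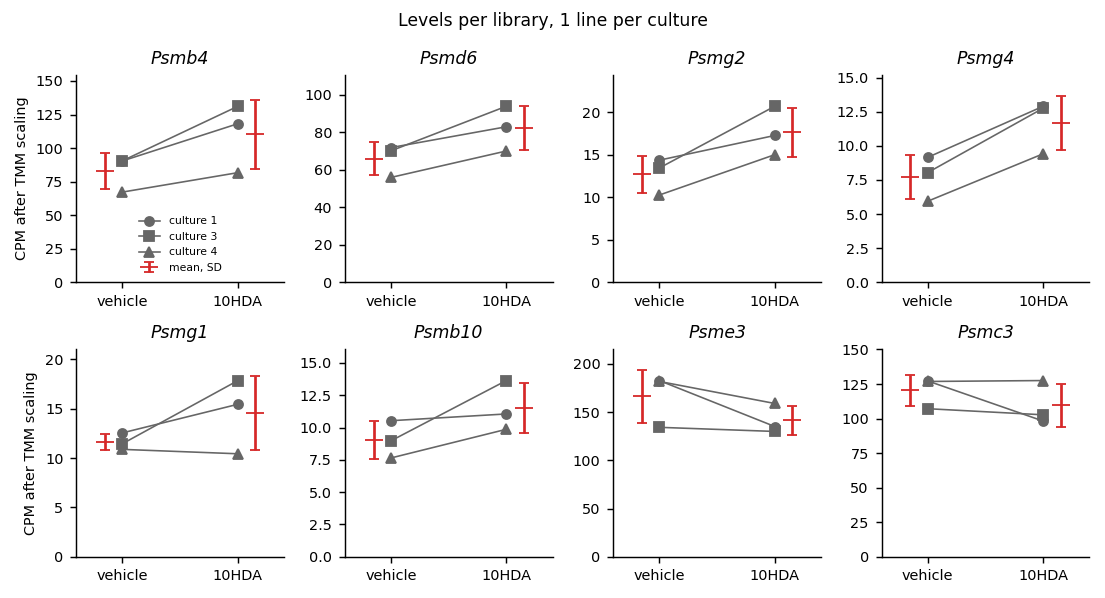
Level in CPM after TMM scaling (y axis, from 0) of 8 proteasome genes with vehicle and with 10HDA, with 1 line per culture and the mean and SD (n = 3) in red. Psmb4, Psmd6, Psmg2 and Psmg4 were higher with 10HDA in each culture, and Psme3 was lower in each culture. Psmg1 was higher in cultures 1 and 3 and slightly lower in culture 4. Psmc3 was lower in cultures 1 and 3 and level in culture 4.

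The 14 constitutive core subunits, which form the barrel, were slightly higher with 10HDA in 11 of 14 genes, and none but Psmb4 was called under the block. Their summed level was 1140, 965 and 889 CPM with vehicle and 1116, 1080 and 971 CPM with 10HDA, lower in culture 1 and higher in cultures 3 and 4. The median log2 fold change was 0.067. Among the alpha subunits the median was 0.069, and 6 of 7 tested lay above 0. Psma4 came closest to a call, at 70.1, 77.8 and 59.3 CPM with vehicle and 90.1, 82.6 and 72.6 CPM with 10HDA (log2 fold change 0.24, SE 0.126, edgeR adjusted p 0.53, and 0.166 with the block). Psma7, which sits in every constitutive core, was at 103 ± 13.9 CPM with vehicle and 108 ± 4.72 CPM with 10HDA (log2 fold change 0.07, SE 0.111, adjusted p 0.841 by edgeR). Its testis-specific counterpart Psma8 had 1 count over the 6 libraries.

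The catalytic subunits gave no call. Psmb5 carries the chymotrypsin-like site, Psmb6 the caspase-like site and Psmb7 the trypsin-like site. Psmb5 was at 34.7, 26.0 and 25.1 CPM with vehicle and 33.0, 37.9 and 23.5 CPM with 10HDA, so that only culture 3 was higher (log2 fold change 0.15, 95% interval -0.26 to 0.55, edgeR adjusted p 0.788). Psmb6 was at 68.7 ± 9.54 CPM with vehicle and 68.4 ± 3.73 CPM with 10HDA, with a 95% interval of the log2 fold change from -0.27 to 0.26 (edgeR adjusted p 0.994). Reads of Psmb6 may be split with its pseudogene Psmb6-ps2, at 10.5 ± 1.45 CPM with vehicle and 10.7 ± 2.14 CPM with 10HDA. Psmb7 was at 103 ± 14.4 and 105 ± 3.95 CPM, with an interval from -0.22 to 0.27 (edgeR adjusted p 0.953). Of these 3 sites, Psmb6 and Psmb7 were therefore held within 1.41-fold by their intervals and Psmb5 was not.

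In cells exposed to interferon the constitutive catalytic subunits are replaced by inducible ones, Psmb8 for Psmb5, Psmb9 for Psmb6 and Psmb10 for Psmb7, giving the immunoproteasome that shapes peptides for antigen presentation. Psmb8 had 14 counts and Psmb9 29 counts over all 6 libraries, and Psmb11, the thymus form, had 2. Per kilobase of annotated exon, the mean vehicle level of Psmb8 was 0.070 CPM against 32.8 CPM for Psmb5, and that of Psmb9 was 0.10 CPM against 36.7 CPM for Psmb6. Psmb10 was the one inducible subunit well above the floor, at 7.13 CPM per kilobase against 84.9 CPM per kilobase for Psmb7. Its level was 10.5, 8.97 and 7.65 CPM with vehicle and 11.1, 13.6 and 9.87 CPM with 10HDA, higher with 10HDA in each culture, with overlapping groups. Its log2 fold change was 0.36 (SE 0.174), with an edgeR adjusted p of 0.518, and of 0.194 with the block.

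Of the 17 Psmc and Psmd subunits of the 19S regulator, 7 had log2 fold changes above 0, and the median on the log2 scale was -0.027, which turned to 0.046 when libraries were scaled by total count alone. Their summed level was 1926, 1674 and 1754 CPM with vehicle and 1759, 1738 and 1823 CPM with 10HDA, lower in culture 1 and higher in cultures 3 and 4 (means 1785 ± 129 and 1773 ± 44.4 CPM). The base ATPases, the ring that unfolds substrates, lay below 0 in 5 of 6 genes (median -0.043, or 0.033 scaled by total count alone) and 0 of 6 were called in either fit. Psmc3 had the smallest p of them, at 127, 107 and 127 CPM with vehicle and 98.2, 103 and 127 CPM with 10HDA, lower in cultures 1 and 3 and level in culture 4 (log2 fold change -0.14, SE 0.122, edgeR adjusted p 0.698). The 11 non-ATPase subunits had a median of 0.002, with 6 above 0. Psmd14, the deubiquitinase that removes ubiquitin chains at the entrance, was at 67.9 ± 9.33 CPM with vehicle and 79.2 ± 8.16 CPM with 10HDA, higher in each culture (log2 fold change 0.22, SE 0.126, edgeR adjusted p 0.559, and 0.207 with the block). Psmd5, Psmd9 and Psmd10, which escort the base during its assembly, had a median of -0.032 with 3 of 3 below 0, the opposite sign to the chaperones of 20S assembly, but of 0.042 when scaled by total count alone and 0.082 without culture 1.

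The gene with the smallest p among those lower with 10HDA was Psme3, which encodes the nuclear activator PA28 gamma. Its level was 183, 134 and 182 CPM with vehicle and 135, 130 and 159 CPM with 10HDA, lower in each culture, with the vehicle library of culture 3 inside the range of the 10HDA group. The means were 166 ± 27.8 and 141 ± 15.5 CPM, with a log2 fold change of -0.24 (SE 0.134, 95% interval -0.53 to 0.06) and an edgeR adjusted p of 0.562, or 0.183 with the block. Next by p came Psmc3, given above, and Psmb2, a beta subunit without a catalytic site, at 72.1 ± 11.1 CPM with vehicle and 66.3 ± 3.37 CPM with 10HDA (log2 fold change -0.12, SE 0.121, edgeR adjusted p 0.737). The activators Psme1 and Psme4 had log2 fold changes of 0.05 and 0.04, and Psmf1, the inhibitor PI31, of 0.04. Psme2, the partner of Psme1, was tested at 1 CPM, with levels of 5.49, 4.25 and 5.27 CPM with vehicle and 8.07, 7.45 and 5.27 CPM with 10HDA, higher in cultures 1 and 3 and level in culture 4 (log2 fold change 0.50, edgeR adjusted p 0.437). Reads of Psme2 and of its retrocopy Psme2b may be split between the genes. The pair together was at 20.2 ± 2.47 CPM with vehicle and 26.9 ± 5.94 CPM with 10HDA.

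The cultures did not move together. In culture 1, 10 of 41 proteasome genes (24.4%) were higher with 10HDA, against 49.7% of all genes tested. In culture 3 it was 30 of 41 (73.2%, against 47.6% of all genes), and in culture 4 also 30 of 41 (73.2%, against 49.4%). The median log2 ratios of the proteasome genes were -0.082, 0.090 and 0.12 in cultures 1, 3 and 4, beside -0.002, -0.016 and -0.003 for all genes. Each ratio rests on 1 library of each treatment, so no test was made within a culture. The vehicle level enters each ratio as its denominator, and the proteasome sum with vehicle was highest in culture 1. The sum with 10HDA was also highest there, at 3361 CPM against 3314 and 3278 CPM in cultures 3 and 4. Culture 1 was also the one with low Y-linked counts. The part of the vehicle level or of the Y-linked difference in the result was not tested. Without both libraries of culture 1 the median log2 fold change of the 41 genes was 0.12, that of the 17 regulator genes 0.060 and that of the 14 core genes 0.13, with 0 of 41 called by edgeR without a block.

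Higher levels with 10HDA in 3 of 3 cultures were seen for 7 of 41 genes (17.1%, against 18.6% of all genes tested), Psma3, Psma4, Psmb4, Psmb10, Psmd6, Psmd14 and Psmg2. Lower levels in 3 of 3 were seen for Psme3 and Psmd1, 2 of 41 (4.88%, against 21% of all genes). Psmd1, the largest scaffold of the base, was at 140 ± 9.86 CPM with vehicle and 131 ± 17.2 CPM with 10HDA (log2 fold change -0.10, SE 0.113, edgeR adjusted p 0.778).

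**Figure D3:**
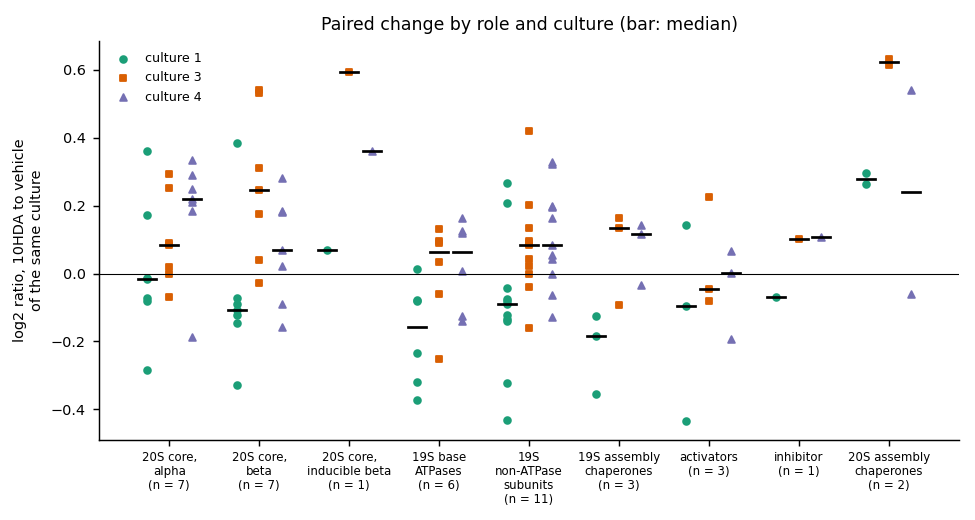
Log2 ratio of the 10HDA to the vehicle library of the same culture (y axis) for the 41 proteasome genes tested, by role (x axis) and culture (colour), with bars at the median. Over all 41 genes, 10 lie above 0 in culture 1 and 30 each in cultures 3 and 4, whereas Psmb10 and both chaperones of 20S assembly lie above 0 in culture 1 and 2 of 3 activators lie below 0 in culture 3.

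Subunits that occur in equal numbers in the complex were not equal at the RNA level. Per kilobase of annotated exon, the 14 core genes ranged with vehicle from 13.5 CPM (Psma3) to 106 CPM (Psmb1), a ratio of 7.82 with a median of 42.7 CPM. With 10HDA they ranged from 14.7 to 109 CPM, a ratio of 7.40 with a median of 43.0 CPM. The 17 regulator genes ranged with vehicle from 13.5 CPM (Psmd11) to 79.8 CPM (Psmd8), a ratio of 5.91, and with 10HDA from 14 to 75.1 CPM, a ratio of 5.38. The same genes stood lowest and highest in both treatments. The assembly chaperones were lower than the median core gene, with Psmg4 at 13.9 CPM per kilobase and Psmg3 at 2.47 CPM per kilobase in vehicle. Annotated exon length covers all isoforms of a gene, so long alternative exons lower a level per kilobase. Exons of 13 of the 48 genes overlap another gene, in 10 cases on the opposite strand alone (Psmc3 with Slc39a13 and Psma4 with AY074887, for example), and with the strand setting of the counting not given, their counts are uncertain.

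**Figure D4:**
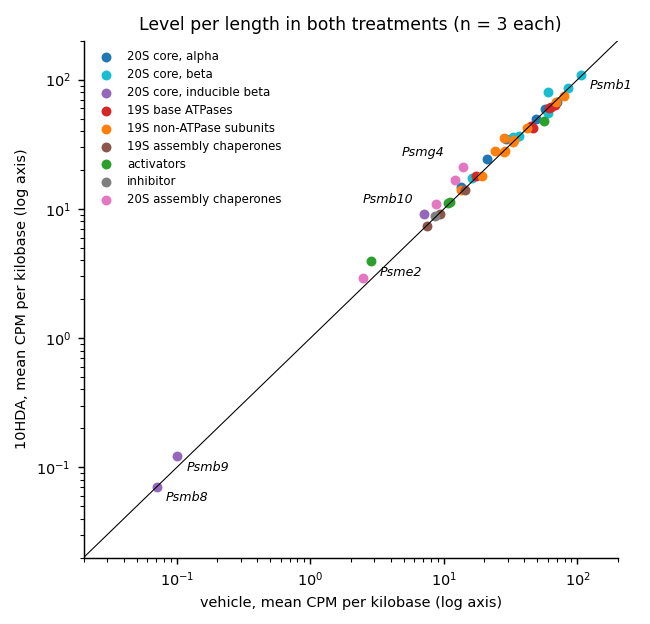
Mean CPM per kilobase of annotated exon with vehicle (x axis, log scale) and with 10HDA (y axis, log scale) for 46 of the 48 proteasome genes (n = 3 libraries per treatment), with the line of equality. Constitutive subunits lie between 13.5 and 106 CPM per kilobase with vehicle, and Psmb8 and Psmb9 lie near 0.1, far below the rest.

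Genes that work with the proteasome gave 0 calls in each of 5 lists by edgeR or limma-voom without a block, and DESeq2 called H2-D1 alone. Of all genes tested, edgeR called 0.627% without a block. At most 1 gene per list had an unadjusted edgeR p under 0.05, against 10.1% of all genes. With the culture block 5 genes of these lists were called, against 8.98% of all genes tested. They were 1 of 12 tested proteasome partners (Fbxo7) and 0 of 8 control genes. The others were 1 of 15 p97 and shuttle genes (Nsfl1c), 2 of 29 ubiquitin, E1 and E2 genes (Rps27a and Ube2e3) and 1 of 5 antigen presentation genes (H2-D1). Among proteasome partners, which include associated deubiquitinases and ligases, 6 of 12 tested were above 0 and 6 below (median 0.002). Their smallest p was that of Fbxo7, an F-box protein that binds the inhibitor PI31, at 115, 120 and 155 CPM with vehicle and 90.9, 94.6 and 118 CPM with 10HDA. It was lower in each culture (log2 fold change -0.36, SE 0.139, edgeR adjusted p 0.426) and fell under the block (adjusted p 0.0196, or 0.0668 without culture 1 and 0.315 without culture 4). Among genes that control proteasome transcription, 6 of 8 tested were above 0 (median 0.13). Mafg, a small Maf protein that pairs with the Nfe2l factors, had the smallest p, at 145 ± 7.94 CPM with vehicle and 173 ± 12.3 CPM with 10HDA (log2 fold change 0.26, SE 0.0968, edgeR adjusted p 0.418). Nfe2l1, which drives proteasome genes when the protease is impaired and is named here for that role after its values were seen, was at 241 ± 7.51 and 248 ± 10.2 CPM (log2 fold change 0.04, SE 0.0899, edgeR adjusted p 0.889).

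Upstream of the proteasome, 6 of 15 genes for p97 and the shuttle proteins that deliver substrates were above 0 (median -0.032, or 0.044 scaled by total count alone). Nsfl1c, a p97 cofactor, was at 115 ± 23.6 CPM with vehicle and 92.2 ± 12.9 CPM with 10HDA (log2 fold change -0.32, SE 0.155, edgeR adjusted p 0.51), and it fell under the block (adjusted p 0.069), a call lost without culture 1 (0.456) or culture 4 (0.42). Among ubiquitin, E1 and E2 genes, 12 of 29 tested were above 0 (median -0.023, or 0.051 scaled by total count alone). Rps27a, which encodes ubiquitin fused to a ribosomal protein, was at 11.7, 13.3 and 11.2 CPM with vehicle and 19.3, 20.7 and 11.3 CPM with 10HDA, higher in cultures 1 and 3 and level in culture 4 (log2 fold change 0.51, SE 0.205, edgeR adjusted p 0.44, and 0.0487 with the block). The block call was lost without culture 1 (edgeR adjusted p 0.257) or culture 3 (0.143). Ube2e3, an E2 enzyme, was the other gene of the list called under the block, at 105 ± 26.6 CPM with vehicle and 125 ± 16.8 CPM with 10HDA (log2 fold change 0.28, edgeR adjusted p 0.0938 with the block, and 0.229 without culture 1 or 0.643 without culture 4).

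Downstream, 5 of 12 antigen presentation genes were tested, with 3 above 0 and a median of 0.18, or 0.011 without the vehicle library of culture 3. The summed level of the 12 genes, most of it from the chaperones Calr and Pdia3, was 983, 816 and 980 CPM with vehicle and 805, 767 and 919 CPM with 10HDA, lower in each culture. Calr and Pdia3 were the 2 tested genes below 0, each lower in 3 of 3 cultures (log2 fold changes -0.23 and -0.23, edgeR adjusted p 0.53 and 0.556), and they are named here after their values were seen. The class I heavy chain H2-D1 was at 29.2, 25.1 and 22.1 CPM with vehicle and 36.6, 41.2 and 33.8 CPM with 10HDA, and the groups did not overlap (log2 fold change 0.55, SE 0.137, edgeR adjusted p 0.181). H2-D1 rose by DESeq2 (adjusted p 0.0433) and with the block (edgeR adjusted p 0.0039, and 0.003 without culture 1), while Psmb8 and Psmb9, its neighbours in the class I pathway, stayed too low to test. Complexes of other function gave medians near those of the proteasome genes, 0.013 for 10 subunits of the COP9 signalosome and 0.002 for 8 subunits of the CCT chaperonin. In both complexes 0 were called by edgeR, DESeq2 and limma-voom without a block (0.627% of all genes tested by edgeR). At an unadjusted edgeR p under 0.05 there were also 0, against 10.1% of all genes. With the block 0 were called, against 8.98% of all genes. At an unadjusted p under 0.05 the block passed 2 of 10 COP9 genes (Cops3 lower, Cops9 higher) and 0 of 8 CCT genes, against 20% of all genes.

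Cell type markers moved with treatment beside these results. Of all genes tested, edgeR called 0.428% lower without a block and 5.08% lower with it. At an unadjusted edgeR p under 0.05 without a block, 4.4% of all genes were higher and 5.67% lower. Astrocyte markers had 11 of 12 tested, 9 below 0 and 5 called lower by edgeR (6 with the culture block), with a sum of 1352 to 1652 CPM with vehicle and 1039 to 1270 CPM with 10HDA. Neuron markers lay below 0 in 11 of 12 (0 called by edgeR without a block, 4 at an unadjusted p under 0.05, and 4 called lower with the block), with sums of 9648 to 10134 and 8056 to 9041 CPM. Oligodendrocyte lineage markers had 3 of 7 tested above 0 and 4 below (median -0.059), with 1 called lower (3 with the block). At an unadjusted edgeR p under 0.05, 1 was higher and 3 were lower with 10HDA. Their sums were 343 to 431 CPM with vehicle and 263 to 373 CPM with 10HDA. Meningeal fibroblast markers, with 1 of 6 tested and called lower, summed to 26.2 to 27.7 CPM with vehicle and 13 to 16.1 CPM with 10HDA. That fall was not shared by the whole list. Mean levels with vehicle and 10HDA were 9.18 and 4.49 CPM for Dcn. For the low collagen genes they were 1.08 and 1.04 (Col1a1), 0.484 and 0.607 (Col1a2) and 0.174 and 0.286 CPM (Col3a1). Endothelial markers, with 0 of 6 tested, summed to 2.29 to 2.89 CPM with vehicle and 1.57 to 1.84 CPM with 10HDA. Dividing-cell markers overlapped between treatments, with 5 of 8 tested and sums of 194 to 248 and 193 to 261 CPM. The part of these shifts in the proteasome values was not tested.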

How the data were processed

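The authors deposited raw read counts per gene: 50-base single-end reads were aligned with Subjunc (Subread 1.4.4) to mm10 and counted over Gencode models. The deposited counts were joined to GENCODE M21 symbols (42462 rows, 98.0%). Following the study's methods, genes at 10 CPM in at least 3 libraries were scaled by TMM and tested with edgeR (here 4.0.16, R 4.3.3) at an adjusted p of 0.1. The quasi-likelihood test, the Benjamini-Hochberg adjustment over 10520 genes and the model without a culture term were chosen here, as those methods name no test function or culture term. The SE is the absolute log2 fold change over the root of F. Culture is the block of the alternative fit, because the labels give each culture 1 library per treatment, and deviations of same-culture libraries correlated at 0.37, 0.24 and 0.62, against -0.45 to 0.18 between cultures. DESeq2 1.42.0, limma 3.58.1, other scalings and filters, and leaving out libraries were the other alternatives. The test was checked on simulated counts. All members could be named, with full statistics for the 3 smallest p in each direction, members called, the catalytic pairs and Psma7 with Psma8, and the smallest p of each related list. Members and lists were chosen with earlier results of these data known. Replicate error is the spread over 3 cultures.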

Additional observations from a re-analysis of the deposited data

How the results depend on the processing

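The number of genes called was 66 of 10520. It was 636 of 26859 with no filter on low counts (294 of them higher with 10HDA), 170 with DESeq2 and 43 at a threshold of 0.05. With culture as the replicate block it was 945 (411 higher). Added after seeing the data, the block gave 1148 of 15311 with the filter of 1 CPM (600 higher). It gave 1265 scaled by library size alone (949 higher) and 943 scaled by DESeq2 size factors (456 higher). Leaving out libraries gave 0 to 350 without the block. The 350 came without the 10HDA library of culture 4, and 176 of them were higher. Leaving out cultures under the block gave 711 (culture 1), 1150 (culture 3) and 277 (culture 4), or 997, 1273 and 423 at the filter of 1 CPM. Of these block calls, 281, 507 and 133 were higher with 10HDA, or 384, 542 and 210 at the filter of 1 CPM. Proteasome genes called higher numbered 0, and 2 with no filter (Psmb4 and Psmg4), 3 with the block, 4 with the block and the filter of 1 CPM, 6 with the block scaled by library size alone (adding Psma4, adjusted p 0.0521, Psmd14, 0.0692, and Psmb10, 0.0935, by edgeR), 3 with the block and DESeq2 size factors, and 0 to 4 when libraries were left out. Without a block 1 was called without the 10HDA library of culture 4. Under the block 3 were called without culture 1, 3 without culture 3 and 1 without culture 4, or 4, 3 and 1 at the filter of 1 CPM. Genes called lower numbered 0, and 0 to 1 when libraries were left out (Psme3, block without culture 3, log2 fold change -0.32). The median log2 fold change of the proteasome genes ranged from -0.012 to 0.12 when libraries were left out. Scaling by library size alone moved the median of all genes most, to 0.067 without and 0.069 with the block. With TMM scaling and all libraries, the block changed no other call among the proteasome genes.

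Signs turned for values near 0. Psmb6 was -0.0032 and became 0.0097 with DESeq2 size factors, 0.027 with upper-quartile scaling, 0.075 with library size alone, 0.0093 at 1 CPM, 0.0044 with no filter, 0.0097 with DESeq2, 0.0079 with limma-voom, 0.0050 with the replicate block, 0.018 with the block at 1 CPM, 0.081 with the block and library size alone, and 0.017 with the block and DESeq2 size factors. Leaving out libraries gave -0.15 to 0.10 for Psmb6, -0.18 to 0.031 for Psmb2, -0.074 to 0.33 for Psmb5 and -0.041 to 0.16 for Psmb7. With a culture left out under the block, Psmb6 was 0.099 (culture 1) and 0.090 (culture 4), Psmb2 0.014 (culture 1), Psmb5 -0.081 (culture 3) and Psmb7 -0.035 (culture 4), and at the filter of 1 CPM these were 0.091, 0.081, 0.0052, -0.087 and -0.045. Psmb2 turned without culture 1 or its vehicle library, Psmb5 without culture 3 or its 10HDA library, and Psmb7 without culture 4, the vehicle library of culture 4 or the 10HDA library of culture 1. Psma8, Psmb8, Psmb9 and Psmb11 stayed below the lower filter, with 1, 14, 29 and 2 counts over the 6 libraries. The causes were not tested.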
